A study of Homo sapiens with 24 samples.

Results

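Cells display fragments of their own proteins on MHC class I molecules, and 10 genes of the machinery that makes and loads these fragments were followed here in HEK293 cells stimulated with TNFα. The genes are TAP1, TAP2, TAPBP, PSMB8, PSMB9, PSMB10, B2M, HLA-F, ERAP1 and NLRC5. They were chosen by name, and all probe sets whose only gene on the platform is one of them were taken. This gave 10 of the 19775 genes that the arrays name and 23 of the 54675 probe sets. TAP1, PSMB8, PSMB9, PSMB10 and NLRC5 had a single probe set each, TAPBP, B2M and HLA-F had 3, TAP2 had 4 and ERAP1 had 5.

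HEK293 is a human embryonic kidney line. Its cells received no DNA, the empty plasmid pCDNA3, or pCDNA3 carrying Flag-tagged human SIRT6, a protein deacetylase of the sirtuin family, either as wild type or as the H133W mutant without deacetylase activity. They were left for 24 h with the transfection mixture, where there was one, and were then given fresh medium with 10 ng/ml TNFα or with its carrier solution alone. The time of stimulation is 1 h in the text on the design and 4 h in the methods. The resulting 8 conditions are called untransfected, empty vector, SIRT6 and H133W, each without and with TNFα, and each has 3 arrays labelled as biological replicates. The transfection was transient, so that an array reads the RNA of a well in which not every cell carries the plasmid. In such bulk RNA a change in the share of cells that respond and a change of RNA per cell cannot be told apart.

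MHC class I molecules are made of a heavy chain and β2-microglobulin, the product of B2M. Peptides are cut by the proteasome, in which the inducible subunits encoded by PSMB8, PSMB9 and PSMB10 can replace the standard ones, are carried into the endoplasmic reticulum by the TAP1 and TAP2 transporter, are trimmed there by ERAP1 and are loaded with the help of tapasin, the product of TAPBP. Interferons and TNFα are known to induce these genes through interferon regulatory factors and NFκB, and NLRC5 is a transactivator of class I genes.

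The promoter windows of the genes with a probe set that rose with TNFα past the limits given below are shown first. The following values refer to them. For TAPBP this was 1 of 3 probe sets, its brightest, and for B2M 1 of 3, a dim one. The bright probe sets of B2M did not pass in any kind of cell. The windows are the 250 bases before the annotated start in RefSeq GRCh38.p14, which held 9 of the 10 genes. NLRC5 is named only. Capitals mark matches, on either strand, to the NFκB consensus or to the core of the interferon-stimulated response element, written here as GAAANNGAAA. PSMB9 is shown beside TAP1, its neighbour, and its window has neither motif. The TAP1 matches lie between the starts of both genes, outside the PSMB9 window.
TAPBP, chr6:33314079-33314328, minus strand: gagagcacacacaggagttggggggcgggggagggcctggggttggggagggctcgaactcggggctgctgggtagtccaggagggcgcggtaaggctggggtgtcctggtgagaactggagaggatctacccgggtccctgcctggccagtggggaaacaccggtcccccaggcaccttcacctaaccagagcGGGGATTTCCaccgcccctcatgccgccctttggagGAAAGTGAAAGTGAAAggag
TAP1, chr6:32853705-32853954, minus strand: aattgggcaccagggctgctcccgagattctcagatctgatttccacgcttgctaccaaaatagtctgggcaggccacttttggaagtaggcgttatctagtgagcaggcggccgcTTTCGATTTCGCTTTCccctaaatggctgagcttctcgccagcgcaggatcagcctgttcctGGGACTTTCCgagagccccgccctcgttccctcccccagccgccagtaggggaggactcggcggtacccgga
B2M, chr15:44711267-44711516, plus strand: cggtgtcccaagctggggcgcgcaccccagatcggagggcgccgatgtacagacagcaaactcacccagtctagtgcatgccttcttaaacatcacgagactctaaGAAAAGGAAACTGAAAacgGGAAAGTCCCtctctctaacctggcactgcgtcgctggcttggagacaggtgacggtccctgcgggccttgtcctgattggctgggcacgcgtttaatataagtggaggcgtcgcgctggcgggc
PSMB9, chr6:32853942-32854191, plus strand: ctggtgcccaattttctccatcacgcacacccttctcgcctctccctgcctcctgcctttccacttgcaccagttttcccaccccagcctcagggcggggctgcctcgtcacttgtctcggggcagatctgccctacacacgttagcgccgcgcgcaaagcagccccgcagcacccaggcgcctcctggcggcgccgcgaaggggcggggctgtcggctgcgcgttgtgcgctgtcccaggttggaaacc

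TAPBP had the NFκB match 56 to 47 bases before its start and overlapping matches to the interferon-stimulated response element at 20 to 11 and 14 to 5 bases. In TAP1 the NFκB match lay at 72 to 63 bases and the overlapping interferon element matches, on the opposite strand, at 134 to 125 and 128 to 119 bases. In B2M the interferon element matches lay at 144 to 135 and 138 to 129 bases, beside an NFκB match on the opposite strand at 125 to 116 bases. These 3 genes were the members whose window held both motifs. ERAP1 had the NFκB match alone, TAP2, PSMB10 and HLA-F had the interferon element alone, and PSMB8 and PSMB9 had neither. The ERAP1 window (chr5:96807946-96808195, minus strand) lies inside the annotated extent of the gene (chr5:96760813-96935854). It therefore does not precede the outermost end of that extent. Over all 35116 promoter windows of the same length, 9.96% held the NFκB consensus, 3.02% the interferon element and 0.202% both. Neither the interferon-γ activated site TTCNNNGAA, found in 6.57% of all windows, nor the cyclic AMP response element TGACGTCA, found in 1.65%, matched in any of the 9. A match is a stretch of letters and no measure of binding. Of the 10 genes 6 lie on chromosome 6, where TAP1 (chr6:32845209-32853704) and PSMB9 (chr6:32854192-32859851) are read in opposite directions from starts with 487 bases between them, so that the 2 windows share 13 bases.

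The arrays carried the markers of the cell line unevenly. Of 8 genes listed for HEK293, NEFL, VIM and KRT18 were among the brightest, with means at the percentiles 99.2, 97.7 and 94.1 of all probe sets, and NEFM and PAX2 were below the median. Of 9 genes of blood and antigen-presenting cells HLA-DPA1 was the highest, at the percentile 75.8, and 7 were below the median, among them PTPRC, CD74, HLA-DRA and CIITA. The mean of this list ran from 4.15 to 4.35 across the conditions. SIRT6 itself was read by a pair of probe sets, and the files do not say whether either reads the part that the plasmids carry. Without TNFα probe set 219613_s_at had means of 8.38 in untransfected, 8.35 in empty vector, 8.42 in SIRT6 and 8.43 in H133W cells. With TNFα it read 8.55, 8.53 and 8.94 in H133W cells and 8.21, 8.23 and 8.16 in empty vector cells. This difference was 0.48 (limma, adjusted p = 0.00733), or 1.39-fold. Without TNFα probe set 233179_x_at read 7.76, 8.68 and 9.31 with empty vector and 9.33, 9.37 and 9.31 with SIRT6. It read 9.86, 9.77 and 9.57 with H133W, while the cells without DNA read 9.08, 8.003 and 9.14. On this probe set SIRT6 exceeded empty vector by 0.75 (limma, adjusted p = 0.749), with overlapping arrays. H133W exceeded empty vector by 1.15 (adjusted p = 0.0357), with no overlap. With TNFα these differences were 0.59 (adjusted p = 0.781) and 0.80 (adjusted p = 0.120). The array of H133W + TNFα replicate 3 stood apart, with a log2 difference between the 3′ and 5′ control probe sets of β-actin of 3.03 against 1.33 to 2.05 on the others and with the lowest weight in limma (0.0844). The direction with TNFα in H133W cells turned without this array for 7 of the 23 probe sets, and it is given both ways for those named with it.

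TNFα raised 1 of 3 probe sets of TAPBP in all 4 kinds of cell. It raised TAP1 and 1 of 3 probe sets of B2M in untransfected cells, and that B2M probe set also in empty vector cells. Here and below, a probe set was called higher or lower at an adjusted p under 0.05 (limma, Benjamini-Hochberg over all 54675 probe sets) and a fold change over 1.5, which is a log2 difference of 0.58. Of the 23 probe sets 3 were called in untransfected cells, where 0.775% of all probe sets were. In empty vector cells 2 were called, against 0.86% of all, and in SIRT6 cells 1, against 0.845%. In H133W cells 1 was called, against 1.12% of all probe sets. All of these calls were upward. The median log2 difference of the 23 was 0.18 in untransfected cells, 0.13 in empty vector cells, 0.0972 in SIRT6 cells and 0.21 in H133W cells. The last was 0.18 without H133W + TNFα replicate 3. Over all probe sets it was −0.0096, −0.018, −0.019 and −0.0048. No call was made in any of the 4 for 20 of the 23, which include every probe set of 7 genes.

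**Figure D1:**
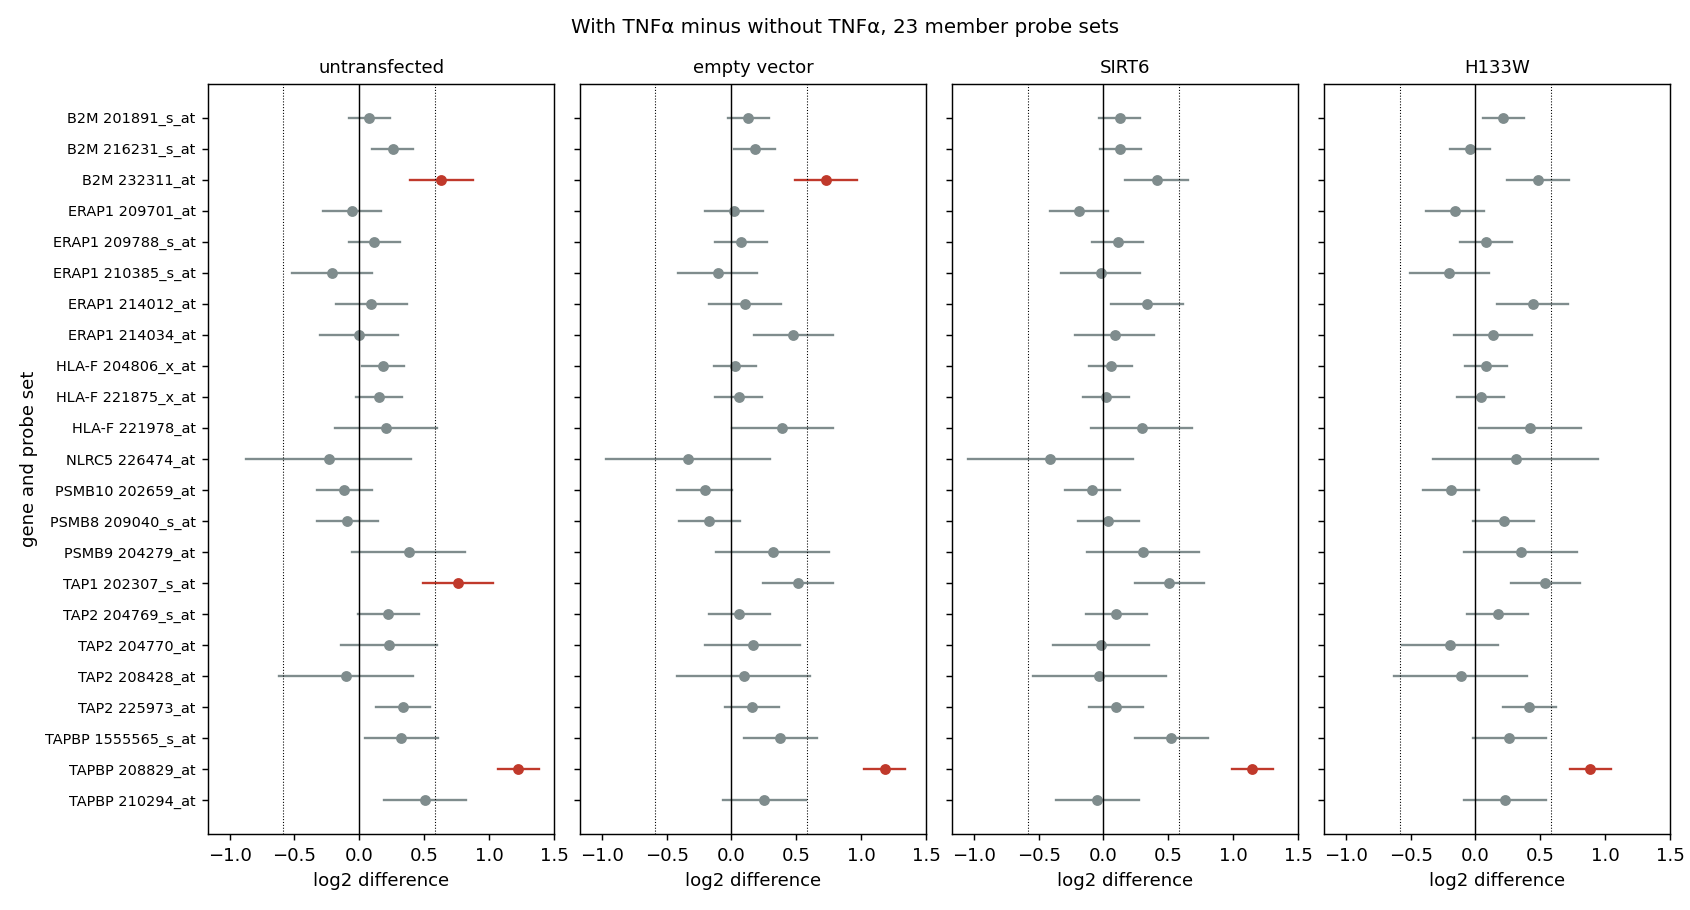
Log2 difference with minus without TNFα (horizontal axis) for the 23 probe sets of the 10 genes (vertical axis), in untransfected, empty vector, SIRT6 and H133W cells from left to right. Points are limma estimates from 3 arrays against 3, lines are 95% confidence intervals, dotted lines mark the 1.5-fold limit and red marks a call. TAPBP 208829_at lies farthest to the right in every panel, at 1.22, 1.18, 1.15 and 0.88.

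Tapasin bridges the TAP transporter and empty class I molecules and favours the binding of peptides that hold well. Probe set 208829_at of TAPBP (chr6:33299694-33314078) read log2 values of 9.90, 9.80 and 9.95 in untransfected cells and 11.11, 11.13 and 11.09 with TNFα. In empty vector cells it read 10.05, 9.84 and 10.09 without and 11.21, 11.10 and 11.21 with TNFα. In SIRT6 cells the values were 10.03, 10.00 and 9.86 without and 11.09, 11.09 and 11.16 with TNFα. These 9 arrays with TNFα all lay within a narrow band more than 1 log2 unit above their partners. H133W cells started at 10.05, 10.01 and 10.12 and reached 11.05, 10.97 and 10.81. Over the 4 kinds of cell the 12 arrays without TNFα ran from 9.80 to 10.12 and the 12 with it from 10.81 to 11.21, with no overlap.

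The log2 difference of TAPBP with TNFα was 1.22 in untransfected cells, 1.18 in empty vector cells, 1.15 in SIRT6 cells and 0.88 in H133W cells (SE 0.0756 each). The adjusted p values were 1.35e-09, 2.38e-09, 3.70e-09 and 2.67e-07. On the linear scale this was 2.33-, 2.27-, 2.22- and 1.85-fold. Without H133W + TNFα replicate 3 the value in H133W cells was 0.95 (adjusted p = 1.74e-07). The smaller rise in H133W cells was set against that in empty vector cells by the interaction term, which was −0.30 (SE 0.107, 95% interval −0.52 to −0.07). It did not pass in limma (unadjusted p = 0.0118, adjusted p = 0.567). Without H133W + TNFα replicate 3 it was −0.23 (adjusted p = 0.99997). Against SIRT6 cells the difference of the rises was −0.26 (adjusted p = 0.851). Between SIRT6 and empty vector cells it was −0.03, with an interval of −0.26 to 0.19.

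The other TAPBP probe sets gave smaller values. Probe set 1555565_s_at differed by 0.32, 0.38, 0.52 and 0.26 in untransfected, empty vector, SIRT6 and H133W cells. Its value in SIRT6 cells had an adjusted p of 0.0465 but was below the fold limit, and the other 3 did not pass. Probe set 210294_at differed by 0.50, 0.25, −0.05 and 0.23 and passed nowhere. Their last values were 0.29 and 0.42 without H133W + TNFα replicate 3. Both are dim on these arrays, with mean log2 values of 4.73 and 3.66 against an array median of 5.30 to 5.38. The named genes whose values over the 24 arrays followed TAPBP 208829_at most closely were SDC4 (Pearson r = 0.995), a heparan sulfate proteoglycan of the cell surface, NFKBIA (0.992), which encodes the NFκB inhibitor IκBα, and CCL2 (0.990), the chemokine also called MCP1. The 24 arrays share the split into those without and with TNFα, so that any transcript that rises in all 4 kinds of cell scores high on this measure.

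**Figure D2:**
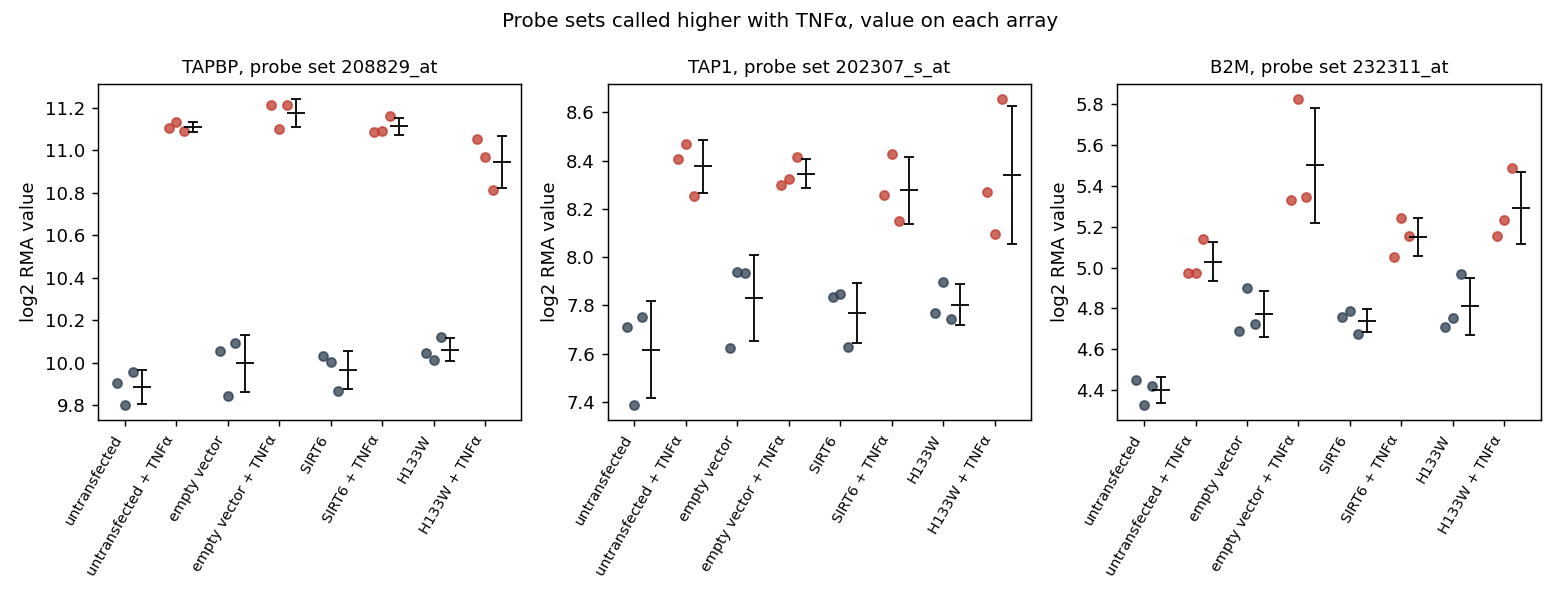
Log2 RMA value (vertical axis) of TAPBP 208829_at, TAP1 202307_s_at and B2M 232311_at on each of the 24 arrays, by condition (horizontal axis), dark without and red with TNFα. Points are arrays and the bar beside them is the mean with its SD (n = 3); in each panel every red point lies above every dark one.

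TAP1 and TAP2 form the transporter that moves peptides into the endoplasmic reticulum. TAP1 202307_s_at read 7.71, 7.39 and 7.75 in untransfected cells and 8.41, 8.47 and 8.25 with TNFα. In empty vector cells it went from 7.62, 7.94 and 7.93 to 8.30, 8.32 and 8.41, and in SIRT6 cells from 7.84, 7.85 and 7.63 to 8.26, 8.43 and 8.15. In H133W cells it went from 7.77, 7.90 and 7.74 to 8.27, 8.10 and 8.65. The 12 arrays without TNFα, from 7.39 to 7.94, did not overlap the 12 with it, from 8.10 to 8.65. The difference was 0.76 in untransfected cells (SE 0.128, adjusted p = 0.00144), a 1.69-fold rise.

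In the other kinds of cell TAP1 stayed below the fold limit. Its difference was 0.51 in empty vector cells (adjusted p = 0.0399), 0.51 in SIRT6 cells (adjusted p = 0.0408) and 0.54 in H133W cells (adjusted p = 0.0233). Without H133W + TNFα replicate 3, the highest of the 24 arrays for TAP1, the last was 0.38 (adjusted p = 0.110). That a call was made in untransfected cells alone does not show a different response there, and the interaction of empty vector against untransfected cells was −0.25 (95% interval −0.62 to 0.13, adjusted p = 0.99998).

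TAP2 was read by 4 probe sets, none of which was called. The brightest, 225973_at, read 8.24, 8.18 and 8.17 in untransfected cells and 8.57, 8.68 and 8.35 with TNFα, a difference of 0.34 (adjusted p = 0.121). In H133W cells it went from 8.13, 7.97 and 7.997 to 8.32, 8.33 and 8.70. This difference of 0.42 had an adjusted p of 0.0227, below the fold limit, and was 0.29 without H133W + TNFα replicate 3 (adjusted p = 0.103). In empty vector and SIRT6 cells it was 0.16 and 0.10. The other TAP2 probe sets differed by −0.20 to 0.23 over the 4 kinds of cell, and none of these values passed. Their values in H133W cells turned without H133W + TNFα replicate 3, for 204769_s_at from 0.17 to −0.0013, for 204770_at from −0.20 to 0.0867 and for 208428_at from −0.12 to 0.29.

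β2-microglobulin is the invariant light chain of every class I molecule. Its 3 probe sets did not move alike. Probe set 232311_at read 4.45, 4.33 and 4.42 in untransfected cells and 4.97, 4.98 and 5.14 with TNFα. In empty vector cells it went from 4.69, 4.90 and 4.72 to 5.33, 5.83 and 5.35. Every array with TNFα lay above its condition without, by 0.63 (SE 0.115, adjusted p = 0.00343) and 0.73 (adjusted p = 7.95e-04) on average, and both were called. The call in empty vector cells was lost without empty vector + TNFα replicate 2, the highest of the arrays at 5.83, where the difference was 0.57. That in untransfected cells was lost without untransfected + TNFα replicate 3, at 0.58, just under the fold limit.

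In SIRT6 cells B2M 232311_at went from 4.76, 4.79 and 4.68 to 5.05, 5.24 and 5.15, a difference of 0.41 (adjusted p = 0.0814). In H133W cells it went from 4.71, 4.75 and 4.97 to 5.15, 5.23 and 5.49, a difference of 0.48 (adjusted p = 0.0251) below the fold limit, and 0.38 without H133W + TNFα replicate 3 (adjusted p = 0.110). Over all 24 arrays the values without TNFα, from 4.33 to 4.97, ended just below those with it, from 4.97 to 5.83. The bright probe sets of B2M showed little of this. Probe set 201891_s_at, with values of 11.85 to 12.23 over the 24 arrays, differed by 0.0765, 0.13, 0.12 and 0.21. Probe set 216231_s_at, from 10.41 to 10.87, differed by 0.26, 0.18, 0.13 and −0.04, the last of which was 0.0771 without H133W + TNFα replicate 3. None of these 8 values passed the test.

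The inducible proteasome subunits were not called in any kind of cell. PSMB9 204279_at read 5.21, 5.21 and 5.56 in untransfected cells and 5.95, 5.78 and 5.38 with TNFα, where the groups overlapped. Its difference was 0.38, 0.32, 0.31 and 0.35 in untransfected, empty vector, SIRT6 and H133W cells (adjusted p = 0.686, 0.591, 0.695 and 0.391). In H133W cells it rested on a single array, since the values with TNFα were 5.88, 5.53 and 6.70, and without replicate 3 the difference was 0.0149. PSMB8 209040_s_at ran from 3.58 to 4.13 over the 24 arrays and differed by −0.09, −0.17, 0.04 and 0.22. It is a dim probe set, with a mean at the percentile 30.4 of all probe sets, and whether it detects the transcript was not tested. PSMB10 202659_at ran from 7.38 to 7.96 and was lower with TNFα in all 4 kinds of cell, by −0.12, −0.21, −0.09 and −0.19, none of which passed. Leaving out H133W + TNFα replicate 3 made the last −0.31 (adjusted p = 0.117) and that of PSMB8 0.26. The standard catalytic subunits PSMB5, PSMB6 and PSMB7, with 4 probe sets, had no call either, and their median difference ran from −0.0597 to 0.0414.

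ERAP1 trims peptides to the length that class I molecules hold. Its 5 probe sets differed with TNFα by −0.21 to 0.48, and none was called. The brightest, 209701_at, differed by −0.05, 0.02, −0.19 and −0.16, and the last was 0.0213 without H133W + TNFα replicate 3. HLA-F, a nonclassical heavy chain, was read by 3 probe sets, 2 of them of the x type, whose probes can also pair with other class I heavy chains. These 2 differed by 0.02 to 0.18, and 221978_at by 0.20, 0.39, 0.29 and 0.42 (adjusted p = 0.924, 0.415, 0.665 and 0.239). In H133W cells without replicate 3 of H133W + TNFα the value of 221978_at was 0.0926, and that of 221875_x_at went from 0.0390 to −0.0471. NLRC5 226474_at differed by −0.24, −0.33, −0.41 and 0.31, and the last turned to −0.19 without H133W + TNFα replicate 3, so that all 4 were then negative. Its spread was the widest of the 23 (SE 0.304), and its 95% intervals in the 4 kinds of cell reached down to −1.04 and up to 0.94.

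Among the 23 probe sets 13 had a positive difference in all 4 kinds of cell and 2 a negative one. Without H133W + TNFα replicate 3 these counts were 12 and 3. The share of all probe sets with the same sign throughout was not counted, so that these counts describe the members only. The largest absolute difference of a probe set that was never called was 0.52.

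Other genes of the same pathway were taken as a list of heavy chains, folding and trimming factors of the endoplasmic reticulum, proteasome parts and transcription factors, of which 23 genes had 57 probe sets of their own; 3 further genes of the list are not analysed here. In each TNFα comparison 4 of the 57 probe sets were called higher and none lower. Of all probe sets 0.775%, 0.86%, 0.845% and 1.12% were called in untransfected, empty vector, SIRT6 and H133W cells. All 4 of the pathway probe sets read transcription factors and stand for 3 genes. The list was chosen with earlier results of these data known. The median of the 57 was 0.0427, 0.0334, 0.0245 and 0.0461 in the 4 kinds of cell. IRF1, an interferon regulatory factor, went from 6.78, 6.50 and 6.57 to 8.46, 8.55 and 8.35 in untransfected cells on probe set 202531_at, with differences of 1.83, 1.93, 1.80 and 1.64 (adjusted p = 1.23e-13 to 2.52e-12). Its other probe set 238725_at differed by 1.55, 1.82, 1.89 and 1.36 and was called in all 4. IRF2, a relative of IRF1 that can oppose it, differed by 0.95, 0.96, 1.01 and 0.73, all called. NFKB1, which encodes the p50 subunit of NFκB and its precursor, differed by 1.59, 1.48, 1.49 and 1.47, all called. Without H133W + TNFα replicate 3 the values in H133W cells were 0.93 for IRF2 and 1.34 for NFKB1. For IRF1 they were then 1.65 on 202531_at and 1.20 on 238725_at. The IRF1 window held an NFκB match 50 to 41 bases before its start, and the NFKB1 window one at 49 to 40 bases. The IRF1 window also held the interferon-γ activated site, at 124 to 116 bases. IRF2 had no window among those searched. Whether these matches have a part in the rises was not tested. The heavy chain genes HLA-B, HLA-C, HLA-E and HLA-G had 14 probe sets with no call, and their medians were 0.0184 to 0.0705. All of these probe sets but HLA-E 200904_at are of the x type. Their probes can also pair with other class I heavy chains, so that the genes were not read separately.

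Wild type SIRT6 moved no member past the test. Against empty vector without TNFα 0 of the 23 probe sets were called, where 0.0348% of all probe sets were. Of the members 0 had an unadjusted p under 0.05 and 0 passed in a plain linear model. With TNFα 0 were called, where 0.0695% of all probe sets were. Of the members 4 then had an unadjusted p under 0.05 and 0 passed in the plain model. Of all 54675 probe sets 3046 without and 3613 with TNFα had an unadjusted p under 0.05. The median difference of the members was 0.0235 without and −0.0393 with TNFα, beside −0.0031 and −0.0041 over all probe sets. Without TNFα the 95% interval lay within 1.5-fold on both sides for 22 of the 23, and with TNFα for 17. These intervals are for the array values of whole wells, in which not every cell carries the plasmid. Of the 23 probe sets 11 had a mean under the median of all probe sets. A larger change in the cells that carry the plasmid was not tested. The largest differences in size with TNFα were −0.43 for ERAP1 214034_at (adjusted p = 0.455), −0.35 for B2M 232311_at (adjusted p = 0.436) and 0.33 for ERAP1 214012_at (adjusted p = 0.621).

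**Figure D3:**
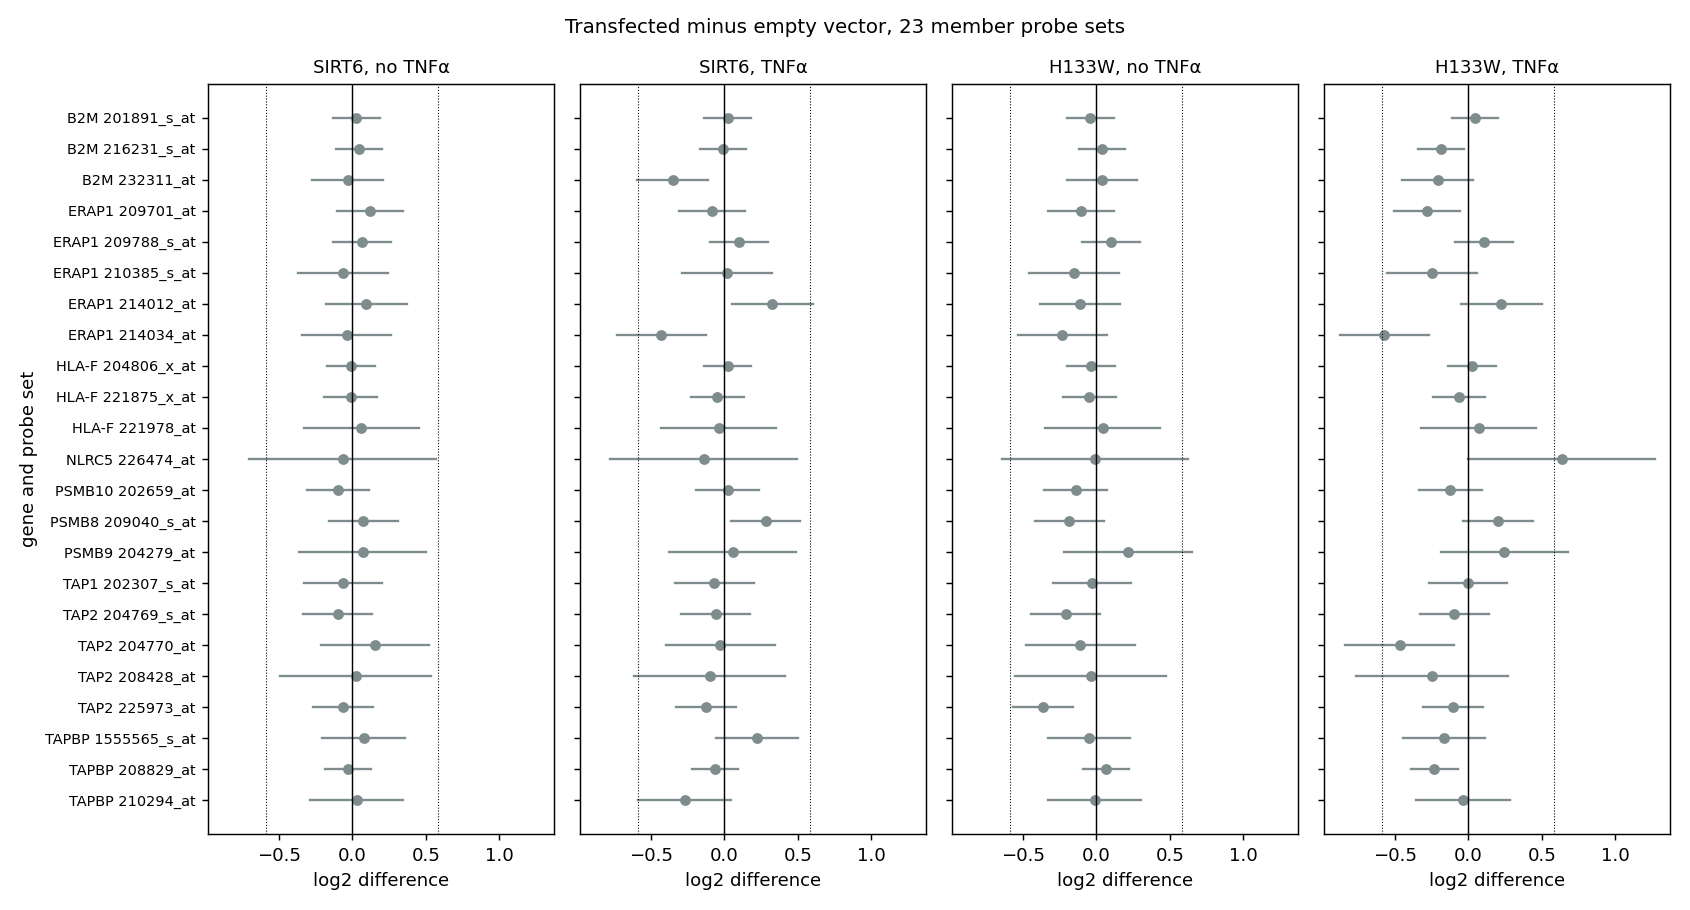
Log2 difference of SIRT6 or H133W cells minus empty vector cells (horizontal axis) for the 23 probe sets (vertical axis), without and with TNFα. Points are limma estimates from 3 arrays against 3, lines are 95% confidence intervals and dotted lines mark the 1.5-fold limit. No point is red, which would mark a call; ERAP1 214034_at with H133W and TNFα, at −0.57, comes closest.

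H133W likewise gave no call against empty vector. Without TNFα 0 of 23 were called, while 0.77% of all probe sets were. Of the members 1 had an unadjusted p under 0.05 and 0 passed in the plain linear model. The 1 was TAP2 225973_at, at 8.13, 7.97 and 7.997 in H133W cells against 8.26, 8.53 and 8.41 in empty vector cells. All H133W arrays lay below all empty vector arrays, and the difference of −0.36 just missed the adjusted threshold (SE 0.0983, adjusted p = 0.0506). With TNFα 0 were called, while 1.4% of all probe sets were. Of the members 5 then had an unadjusted p under 0.05 and 0 passed in the plain model. Of all 54675 probe sets 8063 without and 11167 with TNFα had an unadjusted p under 0.05. The medians of the members were −0.0406 without and −0.0955 with TNFα, the latter −0.12 without H133W + TNFα replicate 3, beside −0.017 and −0.0066 over all.

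The nearest to a call with TNFα was ERAP1 214034_at. It read 3.07, 3.08 and 2.91 in H133W cells and 3.42, 3.89 and 3.47 in empty vector cells. The groups did not overlap, and the difference of −0.57 (SE 0.145, adjusted p = 0.0251) was just below the fold limit. It is a dim probe set, with values of 2.59 to 3.89 over the 24 arrays, and the empty vector arrays with TNFα were also the highest group of the 8. Untransfected cells with TNFα read 2.92, 2.78 and 3.21. Without H133W + TNFα replicate 3 the difference was −0.52 (adjusted p = 0.0918), and it was called, at −0.60 to −0.66, when replicate 1 or 2 of H133W + TNFα or replicate 1 or 3 of empty vector + TNFα was left out. The bright ERAP1 probe sets 209701_at and 209788_s_at differed by −0.28 (adjusted p = 0.139) and 0.11 (adjusted p = 0.577). These values were −0.10 and 0.21 without H133W + TNFα replicate 3. TAPBP 208829_at was lower in H133W than in empty vector cells with TNFα by −0.23 (SE 0.0756, adjusted p = 0.0814), and by −0.17 without H133W + TNFα replicate 3.

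Between H133W and SIRT6 cells 0 of 23 were called without TNFα and 0 with it, where 0.119% and 0.333% of all probe sets were; 2 and 5 members had an unadjusted p under 0.05 and 0 passed in the plain model. Of all 54675 probe sets 4751 without and 8719 with TNFα had an unadjusted p under 0.05. The members' medians were −0.0441 and −0.0353 (the latter −0.0941 without H133W + TNFα replicate 3), beside −0.0161 and −0.0032 over all. Between empty vector and untransfected cells 0 were called without and 0 with TNFα, against 0.0933% and 0.0329% of all probe sets. Here 2 and 2 members had an unadjusted p under 0.05, as had 6756 and 6292 of all 54675 probe sets, and 0 members passed in the plain model. The medians of the member differences were 0.11 and 0.024 beside −0.0021 and −0.018. The widest of these was ERAP1 214034_at with TNFα, at 0.62 (adjusted p = 0.101).

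The response to TNFα was set against that of another kind of cell by 4 interaction terms, in which 0 of the 23 probe sets passed. Of all probe sets 0% passed for empty vector against untransfected cells, 0% for SIRT6 against empty vector, 0.00366% for H133W against empty vector and 0% for H133W against SIRT6. At an unadjusted p under 0.05 there were 1, 0, 3 and 2 members, beside 1321, 1096, 4623 and 2192 of all 54675 probe sets. No member passed in the plain linear model. The 3 of H133W against empty vector were TAPBP 208829_at (−0.30), PSMB8 209040_s_at (0.39) and B2M 216231_s_at (−0.22), each with an adjusted p of 0.567. They were −0.23, 0.43 and −0.10 (each with an adjusted p of 0.99997) without H133W + TNFα replicate 3.

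The array of H133W + TNFα replicate 3 differed from its partners in the members too. On it 8 of the 23 probe sets lay more than 0.5 log2 units from the mean of the other replicates, 4 above and 4 below, against 0 to 3 on each of the other 23 arrays. NLRC5 read 6.70 against 5.08 and 5.30, PSMB9 6.70 against 5.88 and 5.53, and HLA-F 221978_at was higher by 0.98. TAP2 208428_at was lower by −1.23 and 204770_at by −0.85. The difference of NLRC5 between H133W and empty vector cells with TNFα was 0.63 (adjusted p = 0.246) with this array and 0.13 without it. The same array had the largest difference between the ends of β-actin, 3.03, and of GAPDH, 0.53, and the part of RNA quality in these values was not tested.

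**Figure D4:**
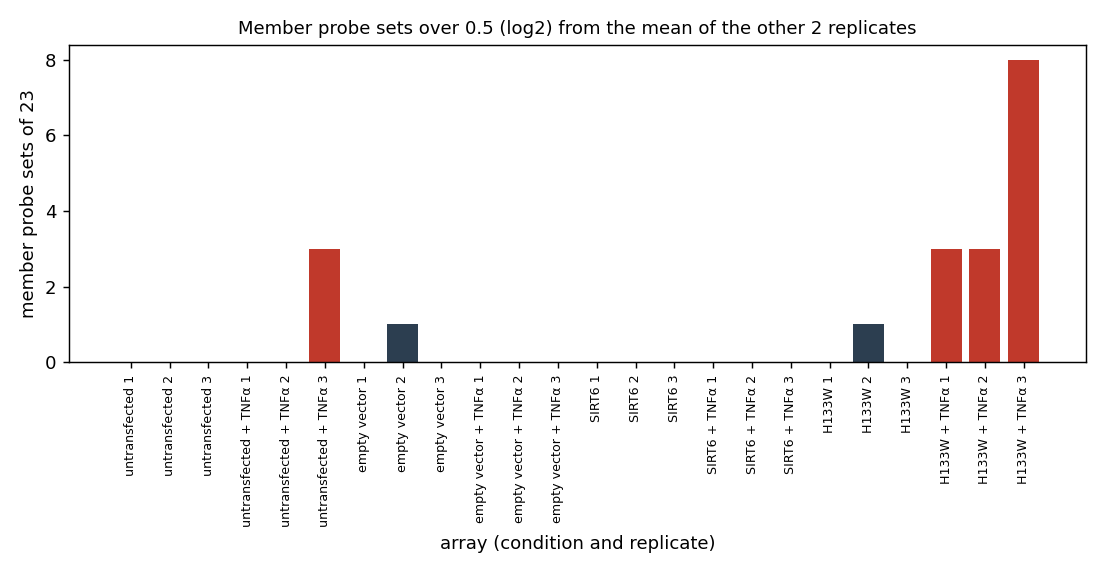
Number of the 23 probe sets (vertical axis) that lie more than 0.5 log2 units from the mean of the other 2 replicates of the condition, for each of the 24 arrays (horizontal axis), red with TNFα. H133W + TNFα replicate 3 has 8, and each other array 0 to 3; the bars of its partners also contain it in their mean.

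**Figure D5:**
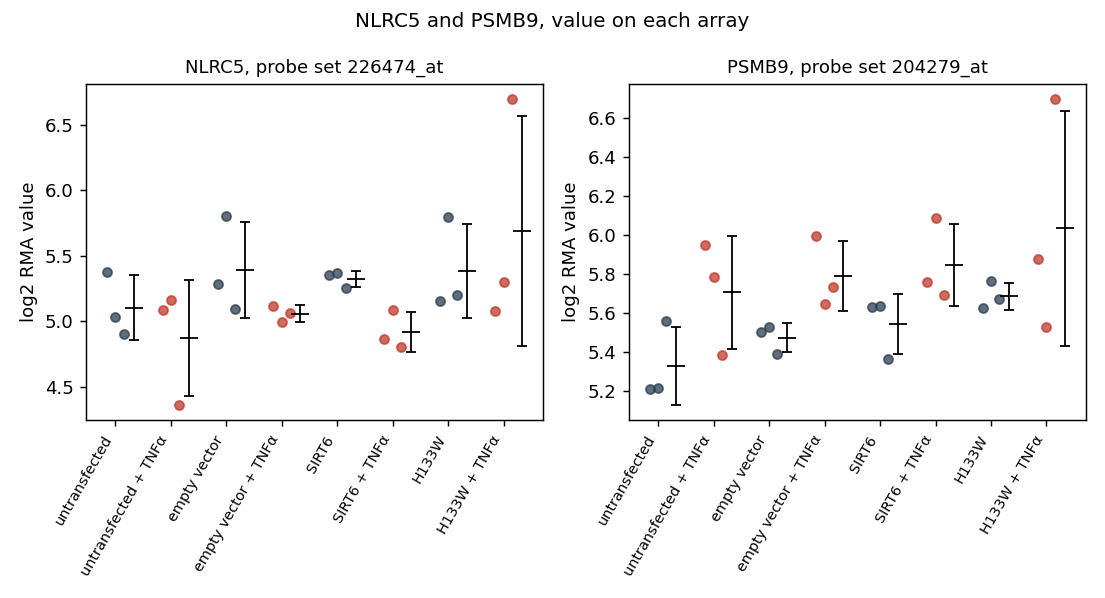
Log2 RMA value (vertical axis) of NLRC5 226474_at and PSMB9 204279_at on each of the 24 arrays, by condition (horizontal axis), dark without and red with TNFα, with the mean and SD of 3 arrays beside them. In both panels 1 array of H133W + TNFα, replicate 3 at 6.70, lies above all others.

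In H133W cells without TNFα 1 of 5 probe sets of the peptidase ERAP2, a relative of ERAP1, was lower than in empty vector cells, at 2.94, 3.13 and 2.82 against 3.77, 3.59 and 3.48 on probe set 1554272_at. The difference of −0.65 (SE 0.126, adjusted p = 0.0054) was the only call among the 57 pathway probe sets outside the TNFα comparisons, in a dim probe set. It fell below the fold limit without H133W replicate 3, at −0.58, or without empty vector replicate 1, at −0.57. In this comparison 0.77% of all probe sets were called. The 4 other probe sets of ERAP2, all brighter, were not called, with differences of −0.20 for 1554273_a_at, −0.20 for 219759_at, −0.25 for 227462_at (adjusted p = 0.0553) and −0.13 for 235104_at. The precision of every value is limited by the 3 arrays per condition.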

How the data were processed

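Total RNA of HEK293 cells in 8 conditions, 3 arrays each, was hybridised to whole-genome Affymetrix arrays of the HG-U133 type. The table deposited by the authors holds log2 values made with RMA in ArrayStudio, 54675 probe sets by 24 arrays, and was used as it stands. RMA draws the arrays to 1 distribution, so that a shift of all transcripts would not be seen. Probe sets were named by the platform table through Entrez IDs, which gave 41097 with a single gene, 1801 with several and 11777 unnamed.

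All arrays entered 1 limma model (version 3.58.1, R 4.3.3) that estimates the 8 condition means, with 16 residual and 3.47 prior degrees of freedom. The Benjamini-Hochberg adjustment ran over all probe sets. A call needed a fold change over 1.5 and an adjusted p under 0.05, and for an interaction the adjusted p alone. The script was tested on simulated data. The members, the pathway list and the marker lists were chosen with earlier results of these data known. All member probe sets were reported, with pathway genes that were called, the 3 genes most correlated with a member called in all TNFα comparisons, and SIRT6. Promoter windows came from RefSeq GRCh38.p14. Alternatives were a plain linear model, a variance trend, the arrays of a comparison alone, array weights, leaving out the 3 arrays of lowest weight, dim probe sets or each array of a comparison in turn, centring or quantile normalizing again, no fold threshold, a replicate block and the brightest probe set per gene. Within conditions the arrays correlated at 0.984 to 0.998.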

Additional observations from a re-analysis of the deposited data

How the results depend on the processing

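Each of 31 single differences, those of members with an adjusted p under 0.05 and of called pathway genes, was followed through 15 or 16 other settings, which include leaving out, in turn, each array of its own comparison but not those of the others. In these settings 19 kept their call and direction, among them TAPBP 208829_at in all 4 kinds of cell, and 0 reversed. Directions of member probe sets that turned without H133W + TNFα replicate 3 numbered 7 with TNFα in H133W cells, 5 for H133W against empty vector and 6 for H133W against SIRT6, both with TNFα. The number of member probe sets called with TNFα in empty vector cells, 2 as reported, was 1 with the arrays of the comparison alone, 1 with dim probe sets left out and 1 to 2 when leaving out each array; the lowest was without empty vector + TNFα replicate 2, where B2M 232311_at was at 0.57. With the brightest probe set per gene 1 member gene was called there in place of 2. Without the fold threshold the count in SIRT6 cells went from 1 to 3 and that in H133W cells from 1 to 4, and leaving out each array gave 1 to 2 in H133W cells, the highest without H133W + TNFα replicate 2, where TAP1 was at 0.66 (adjusted p = 0.00771). Leaving out each array gave 2 to 3 in untransfected cells, and B2M 232311_at there was at 0.56 with array weights. For H133W against empty vector with TNFα, 0 became 1 with no fold threshold and 0 to 2 when leaving out each array, which was 2 without H133W + TNFα replicate 1 and 1 when replicate 2 of H133W + TNFα or replicate 1 or 3 of empty vector + TNFα was left out. For H133W against SIRT6 with TNFα, 0 became 0 to 1, the highest without H133W + TNFα replicate 1, and for empty vector against untransfected cells with TNFα it became 1 with array weights. With the arrays of the comparison alone, IRF2 and IRF1 238725_at in H133W cells did not pass (adjusted p = 0.282 and 0.0559). The share of all probe sets called under each of these other settings was not counted, so that the counts describe the members only. The cause of these changes was not tested. Replicate numbers are shared between conditions but did not pair the arrays, since same-numbered deviations correlated at −0.0047 on average and 11 of 24 arrays correlated best with their own number. With a replicate block the counts with TNFα were 3, 2, 1 and 1 in untransfected, empty vector, SIRT6 and H133W cells, and TAPBP 208829_at in H133W cells was at 0.88 (adjusted p = 8.51e-07). With 3 arrays per condition the standard errors of the members ran from 0.075 to 0.304, and 11 of the 23 probe sets had a mean under the median of all probe sets.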
